A study of Dicentrarchus labrax with 30 samples.

Results

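The set holds 6 gene symbols, SPRYD3, MIA, SULT2ST1, CALL4, PAWR and SSBP1, which were selected because earlier results on these data showed lower levels in bold than in shy European sea bass (Dicentrarchus labrax). The bold minus shy values of the pituitary selected SPRYD3, MIA, SULT2ST1 and CALL4, and those of the head kidney selected PAWR and SSBP1. Every identifier that carries 1 of these symbols was kept apart, which gave 13 of the 26719 identifiers in the count table. SPRYD3 had 2 identifiers, SULT2ST1 had 7, and the other symbols had 1 each. In the tissue that selected a gene, its bold minus shy values are a description with no test. The other tissues were not used in the selection. They come from the same 10 fish, so their values and p values are not fully free of it.

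Fish were 478 days past fertilization when sampled, and the labels name no drug, diet or transgene. Boldness was scored as the latency to leave a shelter in 4 tests spread over 7 months, and the first 3 tests were used to pick fish of extreme behavior. Bold fish left the shelter quickly, and shy fish left it very late or never. Pituitary, whole brain and head kidney each gave 5 shy libraries (3 females and 2 males) and 5 bold libraries (2 females and 3 males), each from 1 fish. The labels do not tie libraries of different tissues to the same fish, so a fish cannot be followed from tissue to tissue, and replicate numbers only name libraries within a group.

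The pituitary is the endocrine gland below the brain, and the head kidney of bony fish is both a blood-forming organ and the seat of the steroid-producing interrenal cells that answer to pituitary hormones. The 6 genes belong to no common pathway. SPRYD3 is a SPRY domain protein of little-known function. MIA is a small secreted protein, known in mammals from cartilage and melanoma cells. Sulfotransferases such as SULT2ST1 add sulfate to small molecules, and the zebrafish enzyme of that name acts on steroids. CALL4 is a symbol given to a calmodulin-like protein, a family that binds calcium through EF-hand motifs. PAWR, also called Par-4, promotes apoptosis in mammals, and SSBP1 coats single-stranded mitochondrial DNA during its replication.

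Pituitary libraries held 3808645 to 12550808 counted reads, brain libraries 7916478 to 20067656 and head kidney libraries 4667992 to 26837997. Each tissue held an identifier of its defining markers at a high level. The thyrotropin subunit TSHB (DLAgn_00096090) averaged 2435 CPM (reads scaled to library size) in pituitary, 0.0845 in brain and 0.0585 in head kidney. The synaptic gene SNAP25 (DLAgn_00066930) averaged 1128 CPM in brain, 42.1 in pituitary and 0.223 in head kidney, although its identifier DLAgn_00254710 was higher in pituitary (30.7 CPM) than in brain (3.38). The neutrophil peroxidase MPX (DLAgn_00085240) averaged 2071 CPM in head kidney, 0.880 in pituitary and 0.477 in brain, while its other identifiers were low in all 3 tissues. By the median Spearman correlation over all genes with the rest of the tissue, 4 libraries stood apart. These were pituitary shy 1 and shy 2 (0.951 and 0.947, against 0.965 to 0.973 in the rest) and brain shy 1 and shy 4 (0.958 and 0.854, against 0.981 to 0.987). Ribosomal protein genes took 3.02% and 1.88% of reads in those pituitary libraries (4.06% to 5.61% in the rest) and 2.86% and 0.0191% in those brain libraries (1.68% to 2.11%). Pituitary shy 1 and shy 2 are both of the shy males of that tissue.

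Levels below are CPM scaled with TMM factors within a tissue, and fold changes are log2 values, bold minus shy, adjusted for sex, with their standard error (SE). The threshold was an adjusted p of 0.05, taken over every gene tested in that tissue, by edgeR's quasi-likelihood test. The filter on low counts kept 7 of the 13 identifiers in pituitary, 5 in brain and 7 in head kidney. Of those, 0 passed in any of the 3 tissues, against 0% of all 17102 genes tested in pituitary, 0.00536% of 18640 in brain and 0.00635% of 15741 in head kidney. DESeq2 called 4 members in pituitary (4.4% of genes tested), 0 in brain (0.0109%) and 2 in head kidney (0.887%), all lower in bold fish, in the tissue that had selected them, and limma voom called 0 in each tissue. At an unadjusted p under 0.05, 4 members in pituitary, 1 in brain and 3 in head kidney were lower in bold fish, against 7.34%, 0.848% and 5.4% of all genes. All of these but SPRYD3 in brain and in head kidney lie in the tissue that selected them. In bulk tissue, fewer cells of a type and less RNA per cell cannot be told apart.

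SPRYD3 identifier DLAgn_00092150 was lower in every bold library than in every shy library in each of the 3 tissues. Of the 13789 genes tested in all 3 tissues it was the 1 with that pattern (0.00725%). The pattern includes the pituitary separation, which is part of what selected it, so nothing is read from that share. In pituitary, which selected it, its level was 66.8, 87.6, 67.7, 69.3 and 74.8 CPM in the shy libraries and 38.8, 35.1, 43.7, 47.7 and 23.1 CPM in the bold libraries. The group means were 73.2 ± 8.60 and 37.7 ± 9.44 CPM (SD, n = 5 each), a log2 change of -0.95 (SE 0.180). The lowest shy library was thus above the highest bold one by more than either group's SD. Without pituitary shy 1 and shy 2, which stood apart, the log2 change was -0.72 (SE 0.233).

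In brain, the same identifier was at 36.9, 41.4, 33.8, 108 and 37.7 CPM in the shy libraries and at 22.5, 28.5, 22.7, 23.1 and 10.4 CPM in the bold libraries. The shy library at 108 CPM was brain shy 4, 1 of those that stood apart, and the other 4 shy libraries were also above all bold libraries. The log2 change was -1.16 (SE 0.400), with an unadjusted p of 0.0171 and an adjusted p of 0.888 by edgeR's quasi-likelihood test, so it did not pass. Without brain shy 1 and shy 4 the change was -0.80 (SE 0.274). An exact two-sided permutation test over all labelings of the 10 libraries as 5 and 5 gave p = 0.00794, the smallest this design allows. It was 1 of 12 such tests on members outside the tissue that selected them, and it did not adjust for sex. The brain libraries come from the same 10 fish as the pituitary libraries that selected the gene. This p value is therefore not fully free of the selection. Over all genes tested in brain, 0.494% had every bold library below every shy one, against 1 of the 5 members tested there.

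In head kidney, levels of DLAgn_00092150 were 13.7, 12.5, 10.4, 17.1 and 12.2 CPM in the shy libraries and 9.23, 8.09, 7.33, 10.1 and 4.99 CPM in the bold libraries. The groups did not overlap, but the lowest shy library and the highest bold library were close, at 10.4 and 10.1 CPM. The log2 change was -0.70 (SE 0.189), with an unadjusted p of 0.00333 and an adjusted p of 0.338 by edgeR's quasi-likelihood test. The exact two-sided permutation p was again 0.00794, with the same limits as in brain. Over all genes tested in head kidney, 1.6% had every bold library below every shy one. In the 30-library fit, the change in brain minus that in head kidney was -0.59 (SE 0.407, adjusted p = 0.776 by edgeR), and 0% of all genes passed that test.

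**Figure D1:**
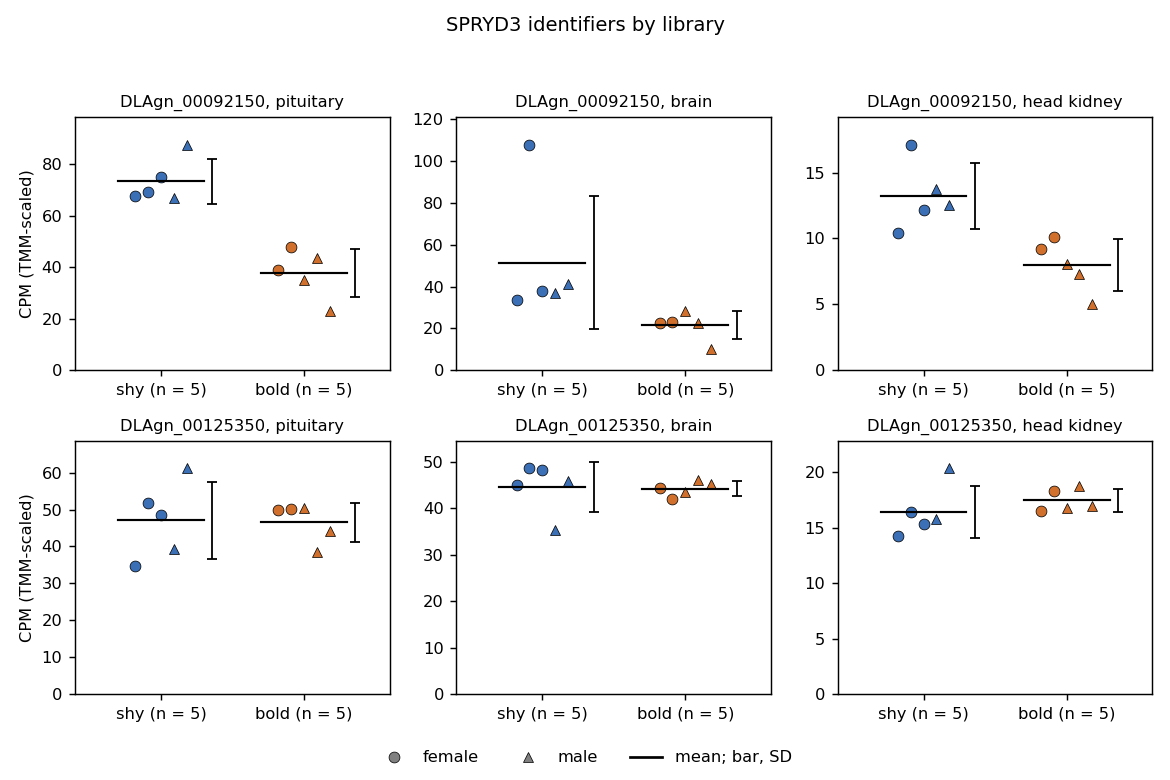
Level of both SPRYD3 identifiers (CPM, vertical axes from 0) in each library of pituitary, brain and head kidney, with shy libraries on the left of each panel, bold on the right, circles for females and triangles for males; lines are means and bars are SD, n = 5. DLAgn_00092150 (top row) shows bold libraries below all shy ones in each tissue, while the groups overlap for DLAgn_00125350 (bottom row).

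The kinds of library ranked alike in the 3 tissues for DLAgn_00092150. By median CPM the order was shy males, shy females, bold females and bold males in every tissue. These medians were 77.2, 69.3, 43.3 and 35.1 CPM in pituitary, 39.1, 37.7, 22.8 and 22.7 CPM in brain, then 13.1, 12.2, 9.67 and 7.33 CPM for head kidney. The order of the sexes within a behavior is one of medians only. Single libraries of shy males and shy females interleaved in all 3 tissues, and those of bold males and females in pituitary and brain. In head kidney the bold females were above the bold males. In brain the bold males and females differed by less than the spread of the bold libraries. A bold male was the lowest library in each tissue, at 23.1, 10.4 and 4.99 CPM, with the next library at 35.1, 22.5 and 7.33 CPM. Whether those 3 low libraries are 1 fish is not given by the labels. Male minus female changes were -0.10 (SE 0.178) in pituitary, -0.38 (SE 0.396) in brain and -0.27 (SE 0.188) in head kidney, none of which passed.

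The second SPRYD3 identifier, DLAgn_00125350, did not follow the first. Its log2 changes were -0.02 (SE 0.165) in pituitary, 0.01 (SE 0.144) in brain and 0.06 (SE 0.112) in head kidney, and the groups overlapped in all 3 tissues. Its range over the 10 libraries of a tissue was narrow in brain, from 42.1 to 48.7 CPM in 9 libraries with brain shy 1 at 35.4 CPM. The share of SPRYD3 reads that fell on DLAgn_00092150, a measure added after seeing the data and given without a test, compares both identifiers within a library and so does not depend on its depth. The share was 57.3% to 66.2% in shy and 34.4% to 53.3% in bold pituitary libraries. Since DLAgn_00125350 changed little, the share largely repeats the level of DLAgn_00092150. In pituitary that level selected the gene, so nothing is read from the separation there. In brain the share was 42.8% to 68.9% in shy and 18.6% to 39.6% in bold libraries, and in head kidney 38.1% to 51.0% and 22.7% to 35.9%. Brain shy 4, which stood apart, held the 68.9%, and the other shy brain libraries were at up to 51.0%. The lowest share, 18.6% of 724 reads in a bold male's brain, had a 95% Wilson interval of 16% to 21.6%, which covers counting error only. The intervals of the closest head kidney libraries overlapped, at 32.8% to 43.6% for shy 2 and 29.7% to 42.6% for bold 1. The identifiers' lengths and sequences were not used here, so reads from near-identical stretches could be split between them, and which levels are exact for each is uncertain.

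**Figure D2:**
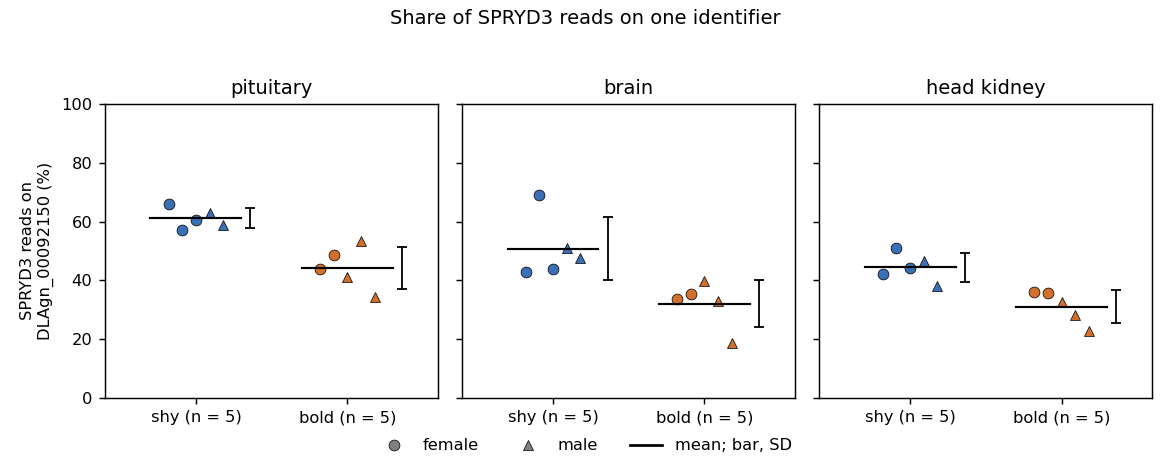
Share of all SPRYD3 reads that were counted on DLAgn_00092150 (percent, vertical axis from 0 to 100) in each library, by tissue, behavior and sex; circles are females, triangles are males, lines are means and bars are SD, n = 5. Bold libraries lie below all shy libraries in pituitary, in brain and in head kidney. In pituitary the level of DLAgn_00092150 selected the gene, so the separation there is not independent of the selection.

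MIA (DLAgn_00042520) was at 15.4, 19.0, 21.4, 16.0 and 13.6 CPM in the shy pituitary libraries and at 8.13, 7.11, 10.6, 9.00 and 6.21 CPM in the bold ones. The groups did not overlap, with a log2 change of -1.05 (SE 0.212), and of -0.99 (SE 0.305) without pituitary shy 1 and shy 2. In pituitary 3 of the 7 members tested had every bold library below every shy one, and 1.03% of all genes did. All 3, SPRYD3 DLAgn_00092150, MIA and SULT2ST1 DLAgn_00063890, were selected by these values, so nothing is read from that count. In head kidney MIA was low, from 0.229 to 2.04 CPM in shy and from 0.369 to 0.809 CPM in bold libraries, so a few reads set each value. The change there was -1.08 (SE 0.512), with an adjusted p of 0.467 by edgeR and an exact two-sided permutation p of 0.230, and the groups overlapped. In brain MIA had 1 to 44 reads per library and was not tested.

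OTOR (DLAgn_00014330), the relative of MIA that is known from the inner ear of mammals, averaged 14.5 ± 4.98 CPM in shy and 6.80 ± 2.80 CPM in bold pituitary (SD, n = 5 each), a log2 change of -1.08 (SE 0.351, unadjusted p = 0.00984, adjusted p = 0.229 by edgeR). The pituitary groups overlapped, with a shy library at 7.84 CPM and bold libraries at up to 9.77 CPM. In head kidney OTOR changed by -0.95 (SE 0.337, adjusted p = 0.372) and in brain by -0.30 (SE 0.582, adjusted p = 0.914), by the same edgeR test. The head kidney value rests on 2 to 41 reads per library. Brain shy 4, which stood apart, held 3.00 CPM of OTOR, with the other shy brain libraries at 24.9 to 59.0 CPM. No change of OTOR passed. Further relatives in pituitary included MIA3, which works in collagen export from the endoplasmic reticulum, at -0.23 (SE 0.127), and CTAGE5, its partner there, at 0.15 (SE 0.111). Of the 4 identifiers of these relatives, 3 were negative in pituitary, with a median of -0.33, against 48.2% negative and a median of 0.02 over all genes. In brain 1 of 4 was negative, with a median of 0.07, and in head kidney 1 of 4, with a median of 0.10. By edgeR 0 of the 4 passed in any of the 3 tissues.

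Markers of cartilage and of pigment cells were summed beside MIA. In pituitary, 36 identifiers of cartilage markers summed to 57.1 to 144 CPM in shy libraries and to 111 to 164 CPM in bold libraries. Their part in the MIA difference was not tested. Of those 36, 3 had no reads there, with the symbols COL2A1, MATN3 and MATN4, although another COL2A1 identifier averaged 13.5 CPM. The 14 identifiers of pigment cell markers summed to 3.89 to 7.83 CPM in shy and 2.87 to 16.7 CPM in bold pituitary, with SLC45A2 at 0. Markers of the hormone cells of the pituitary, 11 identifiers with 0 of them at 0, summed to 2241 to 4206 CPM in shy and 3238 to 4518 CPM in bold libraries. Of 8 tested, 2 were negative and 0 passed by edgeR, and their part in the pituitary values was likewise not tested.

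SULT2ST1 identifier DLAgn_00063890 was lower in bold pituitary, and most of the gap lay in the males. Levels were 458 and 459 CPM in the shy males and 246, 230.5 and 259 CPM in the shy females. Bold females had 184 and 194 CPM, and bold males had 166, 181 and 187 CPM. The groups did not overlap, and the log2 change was -0.87 (SE 0.173). The bold minus shy difference of mean log2 CPM was -0.37 in females and -1.36 in males.

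The interaction of behavior and sex passed for this identifier in pituitary, at -0.99 (SE 0.178, adjusted p = 0.00571 by edgeR). The selection did not use the interaction itself, but it used the same pituitary libraries. High shy male values widen both the selected gap and the interaction, so this p value is not free of the selection. This identifier was the 1 member of 7 to pass in pituitary, against 9.58% of all genes in the same fit. In brain 0 of 5 members and in head kidney 0 of 7 passed this test by edgeR, and 0 of each had an unadjusted p under 0.05; 0% and 0.0191% of all genes passed. The shy males in pituitary are the 2 libraries that stood apart, so sex among shy fish and those libraries cannot be told apart. Without them no shy male is left, the interaction has no value, and the bold minus shy change of SULT2ST1 was -0.38.

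In brain, DLAgn_00063890 was at 15.5 to 107 CPM in shy libraries and 22.1 to 30.8 CPM in bold libraries. The groups overlapped, and brain shy 4 alone reached 107 CPM, with the other shy libraries at up to 40.0 CPM. The log2 change was -0.57 (SE 0.492, adjusted p = 0.888 by edgeR; exact two-sided permutation p = 0.508), and -0.05 without brain shy 1 and shy 4. In head kidney it had 1 to 17 reads per library and was not tested.

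The other 6 SULT2ST1 identifiers held few reads. DLAgn_00232910 was tested in head kidney only, at -0.43 (SE 0.553, adjusted p = 0.817 by edgeR). Its difference of mean log2 CPM had the other sign, 0.18 (exact two-sided permutation p = 0.738), and its median was 0.657 CPM in bold and 0.444 CPM in shy libraries. It had 27 of 30 libraries with reads and 203 reads in all. DLAgn_00243110 had 161 reads over 27 libraries, DLAgn_00236650 had 25 over 14, DLAgn_00098090 had 10 over 6 and DLAgn_00098100 had 6 over 5. DLAgn_00239830 had 0 of 364223419 reads in all libraries, which allows up to 0.00824 CPM, for counting error only. Where these copies resemble each other, reads could be split among them, so their levels are uncertain.

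Genes of sulfonation did not pass in any of the 3 tissues. The list holds genes that make, move or use the sulfate donor PAPS, and others such as sulfate transporters, phosphatases and sulfatase genes. In pituitary 12 of 16 tested identifiers were negative with a median log2 change of -0.21, in brain 12 of 18 with -0.16 and in head kidney 10 of 14 with -0.15. Over all genes 48.2%, 49.3% and 52.0% were negative, with medians of 0.02, 0.01 and -0.01. Passing were 0 in each tissue by edgeR. At an unadjusted p under 0.05, 2, 0 and 2 were lower, against 7.34%, 0.848% and 5.4% of all genes. In the other direction 0, 0 and 0 were higher, against 1826, 96 and 914 of all genes tested. The smallest p values in pituitary were those of IMPAD1, a phosphatase of the Golgi, at -0.36 (SE 0.125), the PAPS transporter SLC35B3 at -0.35 (SE 0.145) and the sulfate transporter SLC26A1 at -0.33 (SE 0.158).

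CALL4 (DLAgn_00161140) in pituitary was at 98.9, 91.5, 58.1, 74.9 and 64.3 CPM in the shy libraries and at 43.8, 52.5, 65.1, 47.3 and 46.4 CPM in the bold ones. The groups overlapped, since a bold male at 65.1 CPM was above shy females at 58.1 and 64.3 CPM. The log2 change was -0.67 (SE 0.130). Both shy males, the libraries that stood apart, were the highest, and without them the change was -0.54 (SE 0.174). Male minus female was 0.40 (SE 0.130, unadjusted p = 0.0099, adjusted p = 0.363 by edgeR) in pituitary, where SULT2ST1 DLAgn_00063890 had 0.41 (SE 0.172, unadjusted p = 0.0344, adjusted p = 0.363). By edgeR, 0 of the members passed the sex test in any of the 3 tissues, as did 0%, 0% and 0% of all genes. These 2 were the only members with an unadjusted p under 0.05 for sex. They are 2 of the 7 tested in pituitary, against 2316 of all 17102 genes there. Both were selected from the same pituitary libraries, in which the shy males were highest, so these p values are not free of the selection. DESeq2 and limma voom also called 0 members for sex.

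In head kidney CALL4 was near 1 CPM, from 0.531 to 0.960 CPM in shy and from 0.369 to 1.16 CPM in bold libraries, with a change of -0.33 (SE 0.424, adjusted p = 0.817 by edgeR; exact two-sided permutation p = 0.532). In brain it had 0 to 11 reads per library and was not tested. Among calmodulins and other calcium sensors, 22 of 45 identifiers were negative in pituitary, with a median of 0.03, and 0 passed by edgeR. Over all genes 48.2% were negative in pituitary, with a median of 0.02. The smallest p values there were those of CETN1, a centrin of the centrosome, at -0.56 (SE 0.136), the neuronal calcium-binding gene CABP1 at 1.77 (SE 0.532) and the glial calcium-binding gene S100B at 1.18 (SE 0.370).

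**Figure D3:**
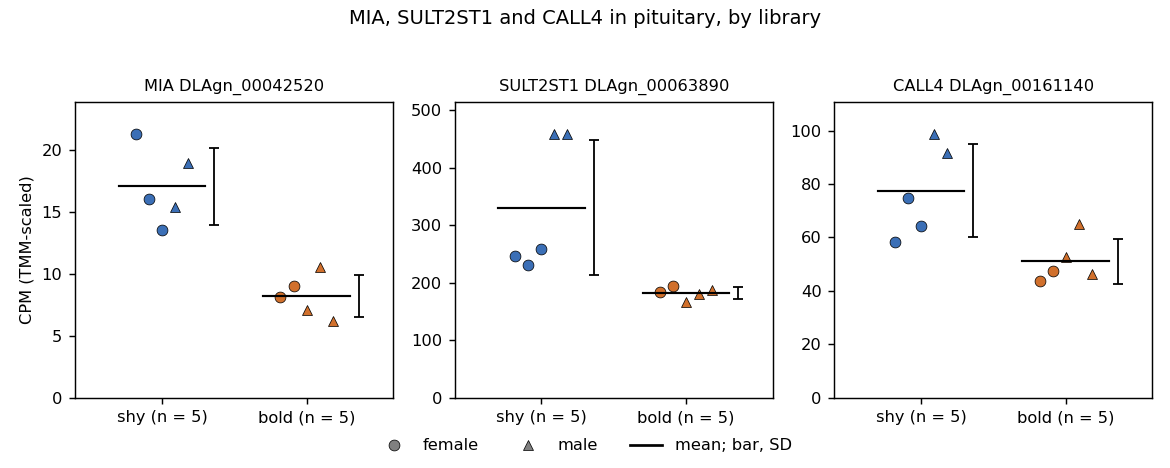
Level of MIA, SULT2ST1 DLAgn_00063890 and CALL4 in pituitary (CPM, vertical axes from 0) in each shy and bold library; circles are females, triangles are males, lines are means and bars are SD, n = 5. For SULT2ST1 the shy males, at 458 and 459 CPM, lie apart from the shy females at 230.5 to 259 CPM, and for CALL4 the groups overlap.

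PAWR (DLAgn_00209350) was selected in head kidney, where it was at 3.67, 2.55, 1.94, 1.70 and 1.97 CPM in the shy libraries and at 0.985, 0.979, 1.16, 0.848 and 1.09 CPM in the bold ones. Every bold library was below every shy one, from 8 to 55 reads per library, and the log2 change was -1.27 (SE 0.254). In head kidney 3 of 7 members showed this separation, and 1.6% of all genes did. Of those 3, PAWR and SSBP1 were selected by these same values, so nothing is read from the count, and SPRYD3 DLAgn_00092150 was not. Both shy males, at 3.67 and 2.55 CPM, were above the shy females.

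In brain, PAWR was at 8.50 to 26.6 CPM in shy and 6.88 to 10.3 CPM in bold libraries, and brain shy 4 was again the highest. The change was -0.51 (SE 0.325, adjusted p = 0.888 by edgeR; exact two-sided permutation p = 0.103) and -0.11 without brain shy 1 and shy 4. In pituitary it was -0.07 (SE 0.172, adjusted p = 0.835 by edgeR), with bold libraries at 20.0 to 24.6 CPM inside the shy range of 17.6 to 31.1 CPM. Among regulators of apoptosis, 31 of 67 identifiers were negative in head kidney, with a median of 0.02, and 50 of 68 in brain, with a median of -0.18. In pituitary 35 of 67 were negative, with a median of -0.04. Over all genes 52.0%, 49.3% and 48.2% were negative in head kidney, brain and pituitary. By edgeR 0 passed in any of the 3 tissues. At an unadjusted p under 0.05 by edgeR, 3 were lower and 5 higher in head kidney, against 850 and 914 of all 15741 genes. In pituitary 7 were lower and 2 higher, against 1255 and 1826 of all 17102 genes, and in brain 1 and 1, against 158 and 96 of 18640. The pro-apoptotic BCL2 relatives BBC3 and BMF were at 0.96 (SE 0.206) and 0.53 (SE 0.123) in head kidney with an adjusted p of 0.278 each, and the death receptor adaptor FADD was at -0.43 (SE 0.140, adjusted p = 0.347), all by edgeR.

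SSBP1 (DLAgn_00261350) was at 28.4, 19.9, 18.6, 26.4 and 24.3 CPM in the shy head kidney libraries, which selected it, and at 14.6, 14.8, 13.7, 11.0 and 14.3 CPM in the bold ones. The groups did not overlap, and the bold libraries lay within a narrow range, with a log2 change of -0.80 (SE 0.143). In brain the change was -0.39 (SE 0.222, adjusted p = 0.888 by edgeR; exact two-sided permutation p = 0.357) and -0.21 without brain shy 1 and shy 4, with brain shy 1 highest at 68.1 CPM and brain shy 4 lowest at 25.6 CPM. In pituitary it was -0.18 (SE 0.189, adjusted p = 0.612 by edgeR), and the groups overlapped in both.

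Of other genes of mitochondrial DNA maintenance, 27 of 42 were negative in head kidney with a median of -0.04, and 28 of 41 in pituitary with a median of -0.12. Over all genes 52.0% and 48.2% were negative there, and in brain 24 of 44 of the list were negative, against 49.3%. By edgeR 0 passed in any of the 3 tissues. At an unadjusted p under 0.05, 5 were lower and 1 higher in head kidney, against 850 (5.4%) and 914 of all 15741 genes. In pituitary 5 were lower and 1 higher, against 1255 (7.34%) and 1826 of all 17102 genes. In brain 1 was lower and 0 higher, against 158 and 96 of all 18640 genes. The smallest p values in head kidney were those of RRM2B, a subunit of ribonucleotide reductase, at -0.33 (SE 0.101), ATAD3A, a mitochondrial membrane ATPase, at -0.35 (SE 0.126) and MTERF, a mitochondrial transcription factor, at -0.45 (SE 0.182). The share of reads on ribosomal protein genes in head kidney was 4.47% to 6.15% in shy and 4.44% to 4.86% in bold libraries. Markers of the interrenal cells, 8 identifiers with 0 of them at 0, summed to 438 to 742 CPM in shy and 305 to 1088 CPM in bold head kidney, with medians of 658 and 380 CPM. All 6 of those tested were negative and 0 passed by edgeR. The part of either measure in the head kidney values of SSBP1, PAWR and SPRYD3 was not tested.

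**Figure D4:**
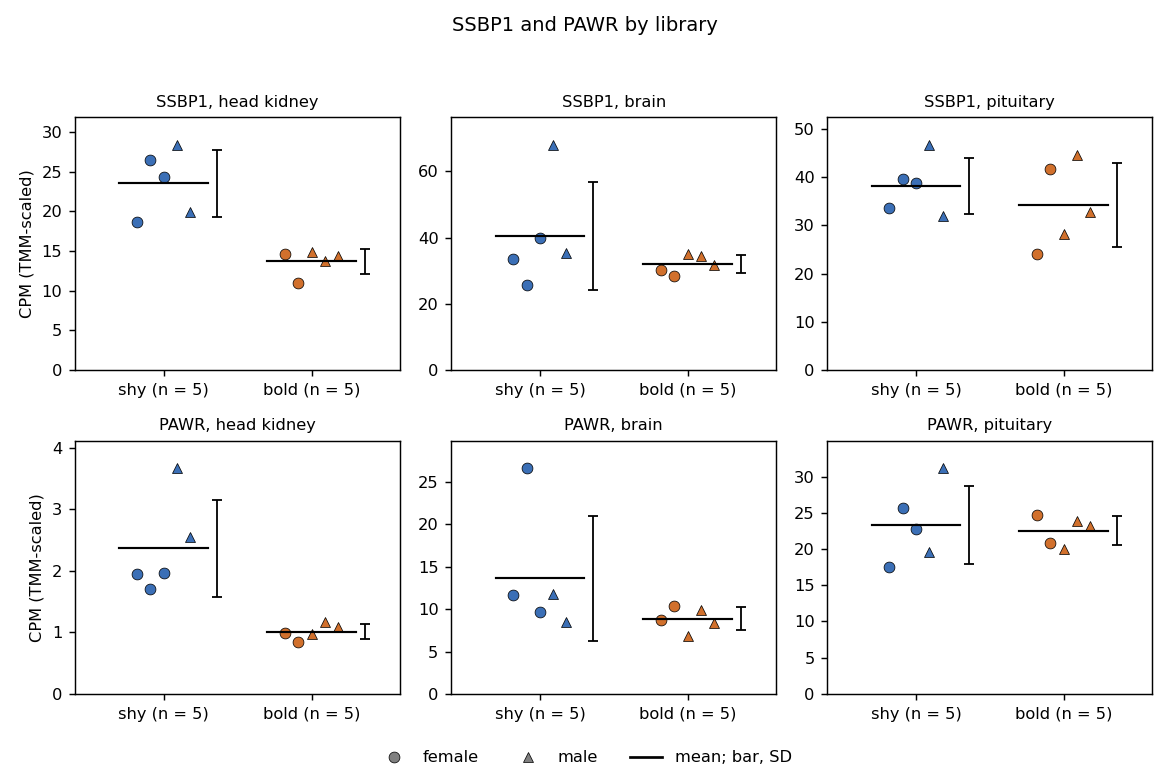
Level of SSBP1 (top) and PAWR (bottom) in head kidney, brain and pituitary (CPM, vertical axes from 0) in each shy and bold library; circles are females, triangles are males, lines are means and bars are SD, n = 5. In head kidney all bold libraries lie below all shy ones for both genes, and in brain and pituitary the groups overlap.

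Outside the tissue that selected them, 0 members passed by edgeR or voom, nor by DESeq2, which gave no adjusted p for MIA, CALL4 and SULT2ST1 DLAgn_00232910 in head kidney. SPRYD3 DLAgn_00092150 was the 1 that reached an unadjusted p under 0.05 by edgeR. Negative changes were found for 7 of 7 members in pituitary, 4 of 5 in brain and 6 of 7 in head kidney, against 48.2%, 49.3% and 52.0% of all genes. The pituitary and head kidney counts hold the values that selected members, so nothing is read from them. SPRYD3 DLAgn_00092150, PAWR and SSBP1 were negative in all 3 tissues, as were 21.8% of the genes tested in all 3. Each of these members was selected by a negative value in 1 of those tissues, so nothing is read from that share. The PAWR change in pituitary was near 0, at -0.07 (SE 0.172). For PAWR and SSBP1 the change in pituitary minus that in brain, neither tissue having selected them, was 0.63 (SE 0.366, adjusted p = 0.929 by edgeR) and 0.19 (SE 0.274, adjusted p = 0.983), and 0% of all genes passed that test.

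**Figure D5:**
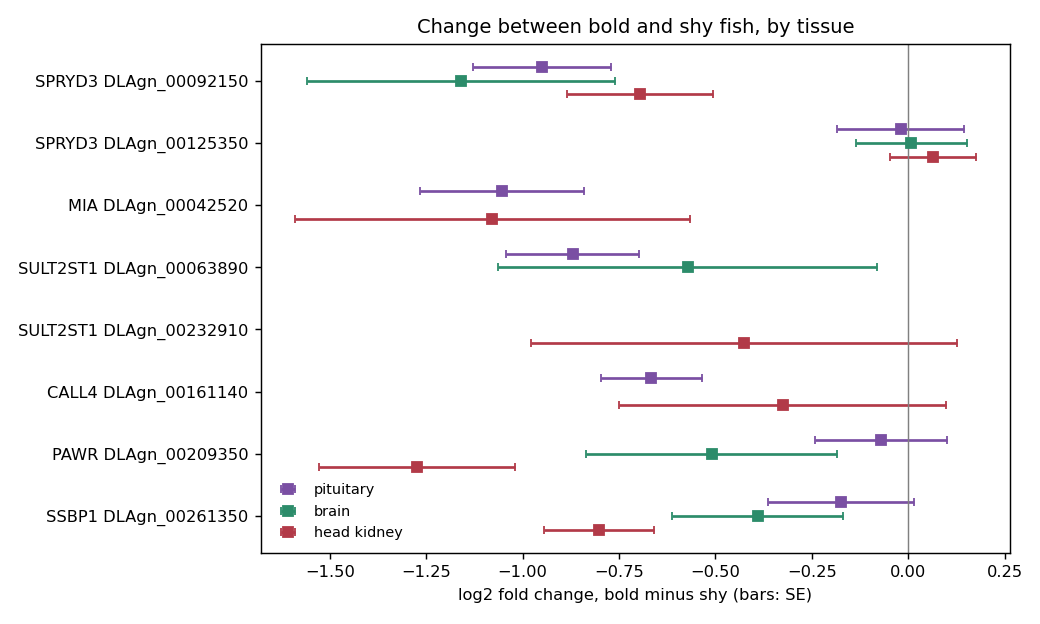
Bold minus shy log2 fold change (horizontal axis) of each member tested, with bars for the SE, in pituitary, brain and head kidney. SPRYD3 DLAgn_00092150 lies between -1.16 and -0.70 in the 3 tissues, SPRYD3 DLAgn_00125350 near 0, and PAWR at -1.27 in head kidney but near 0 in pituitary.

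The kinds of library ranked less evenly for the other genes. MIA had both shy medians above both bold medians in all 3 tissues, with shy males first in pituitary and shy females first in brain and head kidney. SULT2ST1 DLAgn_00063890 had the shy medians on top in all 3 tissues as well, shy males leading in pituitary at 458 CPM and shy females in brain at 40.0 CPM. For CALL4 this held in pituitary, and in brain and head kidney the bold males were highest, at 0.657 and 1.03 CPM. For PAWR it held in brain and head kidney, and for SSBP1 in pituitary and head kidney. The medians of SULT2ST1 DLAgn_00063890 in brain were close for shy and bold males, at 28.2 and 27.6 CPM. Levels of MIA and CALL4 in brain and head kidney, and of SULT2ST1 in head kidney, rest on few reads. With 2 or 3 libraries behind each median, these orders are a description.

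Levels across tissues were compared in 1 fit of all 30 libraries, in which 9 members were tested. By edgeR, a tissue mark asked for an adjusted p below 0.05 and a log2 difference of 1 or more from the average of both remaining tissues. The pituitary was marked by 6 members with a higher level and 0 with a lower level, against 25% and 16.3% of all genes. Brain was marked by 1 higher and 4 lower, against 31.2% and 21.2%, and head kidney by 2 higher and 5 lower, against 23.6% and 35.3%. A mark is against an average, so it need not name the highest tissue. The 1 higher in brain was SULT2ST1 DLAgn_00063890, at 1.49 (SE 0.240), whose level was higher still in pituitary. The 2 higher in head kidney were the low-count SULT2ST1 DLAgn_00232910 and DLAgn_00243110. These were at 0.896 and 0.691 CPM in head kidney and at 0.762 and 0.697 CPM in pituitary. The tissues that selected the members are among those compared, so the counts of marks are not independent of the selection. The pituitary count of 6 includes SULT2ST1 DLAgn_00243110, at 1.04 (SE 0.420, adjusted p = 0.0310), whose call was lost in 11 of 35 alternatives.

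CALL4 had the highest pituitary mark of the members, 6.36 (SE 0.168), with 56.1 ± 16.2 CPM in pituitary, 1.06 ± 0.401 in head kidney and 0.382 ± 0.181 in brain (SD, n = 10 each). SULT2ST1 DLAgn_00063890 followed at 5.89 (SE 0.241), with 224 ± 94.3 CPM in pituitary, 29.0 ± 23.6 in brain and 0.436 ± 0.235 in head kidney, and its ranges did not overlap between tissues. MIA was at 11.0 ± 4.56 CPM in pituitary, against 1.14 ± 0.775 in head kidney and 0.618 ± 0.557 in brain, which overlapped each other. PAWR went from 20.0 ± 3.32 CPM in pituitary to 9.23 ± 5.20 in brain and 2.36 ± 1.14 in head kidney, where the head kidney mark was -2.63 (SE 0.190).

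SPRYD3 DLAgn_00092150 was at 48.5 ± 17.9 CPM in pituitary, 30.1 ± 24.2 in brain and 14.9 ± 5.01 in head kidney, with overlapping ranges. SPRYD3 DLAgn_00125350 was flatter, at 40.9 ± 6.83, 35.9 ± 3.53 and 24.0 ± 2.89 CPM, and marked no tissue. Its head kidney libraries, at 19.5 to 28.1 CPM, still lay below all those of brain (from 29.1) and pituitary (from 30.4). Head kidney differed by -0.67 (SE 0.0911) from the average of the other tissues, short of the size asked for a mark. SSBP1 marked no tissue either, with 31.6 ± 6.30, 29.2 ± 9.75 and 26.2 ± 8.12 CPM, and its neighbours in the order did not differ beyond their spread. The low-count SULT2ST1 identifiers DLAgn_00232910 and DLAgn_00243110 were lowest in brain, at 0.160 ± 0.160 and 0.127 ± 0.111 CPM.

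Genes whose libraries ranked most like a member were sought among 12694 genes with a symbol tested in all 3 tissues, by the mean within-tissue Spearman rho over the 10 libraries of each tissue. For SPRYD3 DLAgn_00092150 they were CSNK1G1, SMO3B and CLPTM1L, each with a mean rho of 0.766 over 3 tissues. For SPRYD3 DLAgn_00125350 they were CCPG1 (0.677), AXIN1 (0.661) and SEMA4C (0.661). SSBP1 was most like the ribosomal protein genes RPL30 (0.855) and RPL29 (0.798) and the GTP-binding gene DRG1 (0.851). PAWR was most like MYOCD (0.721), CACNB2 (0.636) and DCBLD1 (0.628). Over 2 tissues, MIA was most like CA074 (0.867), USP48 (0.818) and PRKAR1A (0.812), SULT2ST1 DLAgn_00063890 most like CHP1 (0.927), ACAD8 (0.873) and TMEM63A (0.873), and CALL4 most like CAPZA2 (0.891), UBE2G1B (0.836) and DUS4L (0.824). Each gene named is 1 of the 3 best of 12694 searched over 10 libraries a tissue, so high values can arise among unrelated genes. How high they can get was not computed. Libraries within a tissue also share depth and the groups themselves, so these values are a description.

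Among other SPRY domain proteins, 13 of 33 identifiers were negative in pituitary with a median of 0.14, and 20 of 31 in head kidney with a median of -0.03. Over all genes 48.2% were negative in pituitary and 52.0% in head kidney. By edgeR 0 of these identifiers passed in either tissue. At an unadjusted p under 0.05, 2 were lower and 5 higher in pituitary, against 1255 and 1826 of all 17102 genes. RANBP9, a scaffold protein, had the smallest p in pituitary, at 1.93 (SE 0.520), followed by FSD1L at 1.25 (SE 0.466) and the ubiquitin ligase RNF123 at 1.31 (SE 0.558), all with a positive sign.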

How the data were processed

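RNA was sequenced from 30 libraries, 5 shy and 5 bold in each of 3 tissues. Per the labels' protocols, libraries came from a stranded poly(A) kit and were sequenced single-end at 50 nt over 3 lanes. The table the authors deposited holds raw counts, 1 per gene identifier and library, with no normalization. Tools named in the submitters' processing notes include featureCounts 1.6.2, SAMtools 1.5 and TopHat2 2.1.1 with Bowtie2 2.2.9. Not given in the sources used here are the build, the annotation, how reads with several matches were treated and whether counting used strand, so reads of overlapping antisense genes may not be told apart. The reference gene table held 0 of the identifiers, so symbols are those of the count table.

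Bold minus shy and male minus female came from 1 edgeR 4.0.16 quasi-likelihood fit per tissue in R 4.3.3 (TMM factors, robust shrinkage, filterByExpr at a minimum count of 10), and the interaction of behavior and sex from a second fit. Benjamini-Hochberg adjustment ran over all genes tested in a tissue. Tissue levels came from 1 fit of all 30 libraries, treated as independent, although 10 fish gave them. DESeq2 1.42.0, limma 3.58.1 voom with sample quality weights, median-of-ratios size factors, other filters, no sex term and each library left out were alternatives. Not every result was run under every alternative. The interaction was rerun only with median-of-ratios factors and with single libraries left out. Exact permutation tests used mean log2 CPM (prior count 2) and did not adjust for sex. Wilson intervals came from scipy 1.17.1. Counting error is large for members near 1 CPM. The steps were tested on simulated data.

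The members and gene lists were chosen with earlier results of these data known. Genes other than members were named by rule, as the 3 most alike by mean Spearman rho and, from each list, the 3 with the smallest p in the tissue of the list's member. No 2 libraries of a tissue held identical values (0 pairs). Each library is of 1 fish, so p values from within 1 tissue measure the spread between fish. The fit of all libraries treats libraries of the same fish as independent. Its p values, for tissue marks and for changes compared between tissues, therefore cannot be read as measuring that spread. Sequences are not used here.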

Additional observations from a re-analysis of the deposited data

Results flagged for a closer look

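Single libraries lay far from the other 4 of their group in 7 of 38 groups checked. Chance flags about 1 in 20 only for independent groups of normally distributed values. These groups share libraries and use CPM that is not log-scaled, some of it from few reads. Nothing is therefore read from the number of flagged values. In brain, shy 4 held 3 of these values, with SPRYD3 DLAgn_00092150 at 108.02 CPM (33.8 to 41.4 in the other shy libraries), SULT2ST1 DLAgn_00063890 at 106.72 CPM (15.5 to 40.0) and PAWR at 26.614 CPM (8.50 to 11.8). That library also had 0.0191% of its reads on ribosomal protein genes and the lowest correlation with the rest of its tissue, 0.854. Its part in these values was not tested. Brain shy 1, which also stood apart, had SPRYD3 DLAgn_00125350 at 35.396 CPM, against 45.1 to 48.7 in the other shy libraries.

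In head kidney, SSBP1 was at 11.022 CPM in bold 4, a female, against 13.7 to 14.8 CPM in the other bold libraries. SULT2ST1 DLAgn_00232910 was at 2.0171 CPM in shy 2 (0.0970 to 0.650 in the others) and at 0.2462 CPM in bold 1 (0.617 to 0.678), from 19 and 2 reads.

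The bold minus shy change of SULT2ST1 DLAgn_00063890 in pituitary differed between the sexes, with an interaction of -0.98851 on the log2 scale (SE 0.178, adjusted p = 0.00571 by edgeR's quasi-likelihood test). In the same fit 9.58% of all genes passed. The value rests on 2 shy males, both among the libraries that stood apart, and sex and those libraries cannot be told apart. The same pituitary libraries selected the gene, so this p value is not free of the selection.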

How the results depend on the processing

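Of 1791 alternative values for 67 results, 1717 were scored as kept. For a log2 change this means the same sign and the same side of the threshold. A count of members was scored as kept when equal or of similar size, so such a count could still differ. Values without an adjusted p were scored as not passing. DESeq2 called 4 members in pituitary (4.4% of genes tested) and 2 in head kidney (0.887%) where edgeR called 0, all in the tissue that selected them. Leaving out 1 pituitary library at a time gave 0 to 2, the 2 being SPRYD3 DLAgn_00092150 and SULT2ST1 without bold 4. Both were selected in pituitary, and the share of all genes called without bold 4 is not given here, so nothing is read from that count. SPRYD3 DLAgn_00092150 kept a negative change throughout, from -1.32 to -0.80 in brain (adjusted p 0.389 to 1.0) and from -0.78 to -0.59 in head kidney (0.0911 to 1). The SULT2ST1 interaction ranged from -1.03 to -0.92 (adjusted p 0.00566 to 0.0239 by edgeR) over 11 alternatives. These were median-of-ratios factors and each pituitary library left out, so each kept at least 1 of the 2 shy males that stood apart. It was not run by DESeq2 or voom. For CALL4 in head kidney the range was -0.69 to -0.08.

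Signs also turned, mostly for values near 0. SPRYD3 DLAgn_00125350 in pituitary became 0.073 by voom and 0.147 without shy 1 and 2, and -0.102 to 0.164 with single libraries left out. In brain it became -0.0112 with median-of-ratios factors, -0.0104 by DESeq2, -0.0478 by voom, -0.0119 without the sex term, -0.0352 in 1 fit of all 30 libraries and -0.0735 without shy 1 and 4, and ranged from -0.0912 to 0.0628 with single libraries left out. PAWR in pituitary became 0.0469 without shy 1 and 2 and ranged from -0.161 to 0.109. SULT2ST1 DLAgn_00232910 in head kidney, at -0.43 in the report, became 0.202 by voom and ranged from -0.911 to 0.459, the last without shy 2. In brain against the other tissues, SSBP1 became -0.0328 by voom, -0.0638 without the libraries that stood apart and -0.0952 to 0.186 with single libraries left out, and SPRYD3 DLAgn_00092150 became -0.203, -0.159 and -0.178 to 0.254. The cause was not tested.

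Members marking pituitary numbered 5 to 7 and head kidney 5 to 8, against 6 and 7 in the report. The pituitary call of SULT2ST1 DLAgn_00243110 was lost without the libraries that stood apart (0.858), without any 1 of pituitary shy 2, shy 4, bold 1 and bold 2, and without any 1 of brain shy 2, shy 5, bold 1, bold 2, bold 3 and bold 5. Its head kidney call was lost without head kidney shy 2 (0.870).

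No paired analysis was possible because the labels give no number that ties libraries of different groups. Depth limits members near 1 CPM, where 1 to 3 reads move a value.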
